A study of Mus musculus with 6 samples.

Results

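The genes described here are 37 genes of the hypoxia response and of glycolysis, taken by name from a table of 13823 genes: transporters of glucose and lactate, the enzymes of glycolysis, the regulators around pyruvate, the subunits and oxygen sensors of the hypoxia-inducible factor (HIF), and 10 of its target genes. All 37 were listed. RNA sequencing measured them in 6 mice of the Balb/c strain, labelled male. Of these, 3 received isotoosendanin (ITSN), a plant limonoid, by gavage at 1 mg/kg per day, and 3 received the vehicle dimethyl sulfoxide (DMSO). The series title sets the compound against the type I TGF-β receptor in triple-negative breast cancer, a breast cancer that lacks the hormone receptors and HER2. The tissue is labelled breast, with no word on a tumour, on how long the mice were dosed or on their age. No genetic alteration is given for either group, and each library is 1 mouse.

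Glycolysis splits glucose into pyruvate in an investment phase, which spends ATP to make triose phosphates, and a triose phase, which recovers more ATP than was spent. Cells short of oxygen reduce the pyruvate to lactate and export it. The hydroxylases EGLN1 and EGLN3 use oxygen to mark HIF-1α for capture by VHL and destruction. When oxygen falls, HIF-1α escapes, pairs with ARNT and binds the core letters ACGTG or GCGTG beside its targets, which include glucose transporters, most glycolytic enzymes and angiogenic factors. Solid tumours, breast tumours among them, are known for both programmes.

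Levels are in FPKM (fragments mapped per kilobase, relative to a library's total), so they compare genes per length, and the depth of the libraries is unknown. Mitochondrial transcripts made up 14.3%, 15.6% and 13.5% of the FPKM sum in ITSN 1, 2 and 3, against 32.3%, 22.4% and 17.5% in vehicle 1, 2 and 3. On the first principal component vehicle 1 was far from the rest, at 43.2, where the other libraries lay between -20.1 and 4.63. For that reason values are also given without it. Across all tested genes the change between the groups followed the GC content of the transcript (Spearman rho 0.59 across genes, which are not independent replicates, 0.43 across the 37). Xist, a transcript of female cells, stood at 25.1 to 28.5 FPKM in ITSN and 20.1 to 29.3 FPKM in vehicle libraries, against the label male. The keratins Krt8 and Krt18 of simple epithelium were high in all 6 libraries (224 to 236 and 269 to 301 FPKM in ITSN, 140 to 228 and 191 to 280 FPKM in vehicle). Of 7 adipocyte markers 2 were listed, and of 7 basal epithelial markers 3.

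No single gene of the 37 passed the test between ITSN and vehicle. The 3 transporters and 7 of the 14 glycolytic enzymes stood higher in every ITSN library than in any vehicle library. That was so for 21.8% of all tested genes. In 8 of the 10 HIF target genes all 3 ITSN values stood inside the vehicle range, where 27.8% of all tested genes did so. Those 10 genes were grouped after the values were seen. In limma on log2(FPKM + 1), with adjustment over 12257 tested genes, 0 of 37 had an adjusted p under 0.05, where 0.0571% of all tested genes did. At an unadjusted p under 0.05 there were 10 of the 37 (27.0%), against 20.9% of all tested genes. Of these 9 were higher and 1 lower in ITSN, where 16.3% of all tested genes were higher and 4.57% lower. The 3 ITSN values lay above all 3 vehicle values for 14 of the 37 (37.8%), where 21.8% of all tested genes did so. They lay below them for 1, Hif1a, where 7.37% of all tested genes did so. After a trimmed-mean rescaling of the libraries, 9 (24.3%) lay above and 1 (2.7%) below, against 15.8% and 15.0% of all tested genes.

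The table as a whole was shifted the same way. The fitted change was above 0 for 28 of the 37, with a median of 0.15 log2 units, but also for 64.0% of all tested genes, whose median was 0.09. That median moved to -0.00 once libraries were scaled by trimmed means and to -0.02 once they were quantile normalized. The median of the 37 was then 0.04 and 0.08, with 21 of them above 0 under each. With the trend over GC content removed it was 0.005, with 19 above 0. Without vehicle 1 it was 0.21, with 33 above 0, and 3 of the 37 passed as higher in ITSN, Slc16a3, Car9 and Slc2a1, where 3.35% of all tested genes did, and 0 as lower, where 2.15% of all tested genes did. These 3 calls were lost once the trend over GC was also taken out, with adjusted p of 0.0977 for Slc16a3 and 0.0893 for both Car9 and Slc2a1.

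**Figure D1:**
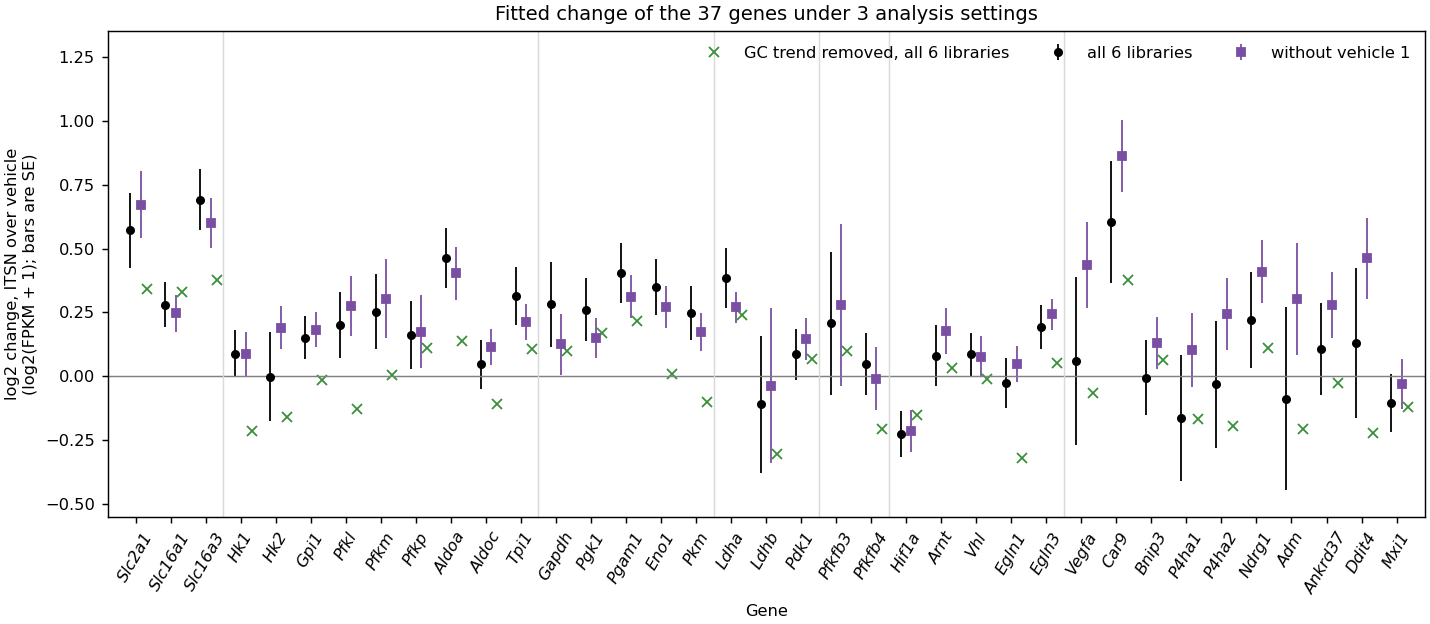
Log2 change of each of the 37 genes, ITSN over vehicle, on the log2(FPKM + 1) scale, with all 6 libraries (black, ± SE), without vehicle 1 (purple, ± SE) and with the GC trend removed (green crosses). Vertical lines part the roles in the order of the text. Slc16a3, Car9 and Slc2a1 lie highest in black, Hif1a is the lowest, and the green crosses lie below the black points for most glycolytic enzymes.

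The promoters of the 6 genes with the smallest p that hold a HIF core are shown first, though none of these genes passed the test with all 6 libraries. Each is a RefSeq window of 300 bases, from 250 before to 50 after an annotated start (GRCm38.p6), written 5′ to 3′ on the gene's strand. Capitals mark each ACGTG and each GCGTG found on either strand of the window, so that the palindrome CACGTG counts once per strand.
Slc16a3 promoter, chr11:120948817-120949116, + strand: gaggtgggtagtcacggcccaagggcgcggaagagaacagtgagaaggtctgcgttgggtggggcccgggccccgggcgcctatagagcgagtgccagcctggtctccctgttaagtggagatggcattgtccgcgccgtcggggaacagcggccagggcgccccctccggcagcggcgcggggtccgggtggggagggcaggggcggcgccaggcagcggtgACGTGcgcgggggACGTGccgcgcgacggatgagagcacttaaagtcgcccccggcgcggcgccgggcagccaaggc
Aldoa promoter, chr7:126799129-126799428, - strand: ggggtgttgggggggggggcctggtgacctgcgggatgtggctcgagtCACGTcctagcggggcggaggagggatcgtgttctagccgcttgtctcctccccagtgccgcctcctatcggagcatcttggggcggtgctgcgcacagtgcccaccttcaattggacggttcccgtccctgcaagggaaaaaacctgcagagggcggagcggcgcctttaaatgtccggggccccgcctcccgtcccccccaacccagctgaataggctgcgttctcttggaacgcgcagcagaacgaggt
Slc2a1 promoter, chr4:119108495-119108794, + strand: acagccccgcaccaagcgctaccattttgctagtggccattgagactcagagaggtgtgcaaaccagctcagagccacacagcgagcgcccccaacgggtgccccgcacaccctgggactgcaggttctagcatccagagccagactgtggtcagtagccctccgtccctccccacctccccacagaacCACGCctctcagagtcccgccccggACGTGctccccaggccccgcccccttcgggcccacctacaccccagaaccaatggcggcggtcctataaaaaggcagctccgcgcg
Pgam1 promoter, chr19:41911621-41911920, + strand: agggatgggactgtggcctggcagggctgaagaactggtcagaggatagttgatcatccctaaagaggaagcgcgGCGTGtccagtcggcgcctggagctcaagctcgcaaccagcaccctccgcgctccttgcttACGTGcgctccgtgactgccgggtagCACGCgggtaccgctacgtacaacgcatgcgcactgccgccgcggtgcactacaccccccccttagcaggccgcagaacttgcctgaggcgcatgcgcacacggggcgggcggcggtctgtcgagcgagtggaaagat
Ldha promoter, chr7:46845554-46845853, + strand: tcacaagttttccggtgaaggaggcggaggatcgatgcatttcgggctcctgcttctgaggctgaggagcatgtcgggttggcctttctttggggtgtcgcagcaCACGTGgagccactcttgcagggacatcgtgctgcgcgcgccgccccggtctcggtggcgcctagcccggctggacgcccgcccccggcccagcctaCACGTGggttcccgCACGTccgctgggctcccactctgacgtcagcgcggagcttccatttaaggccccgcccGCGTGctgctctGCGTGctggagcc
Slc16a1 promoter, chr3:104638414-104638713, + strand: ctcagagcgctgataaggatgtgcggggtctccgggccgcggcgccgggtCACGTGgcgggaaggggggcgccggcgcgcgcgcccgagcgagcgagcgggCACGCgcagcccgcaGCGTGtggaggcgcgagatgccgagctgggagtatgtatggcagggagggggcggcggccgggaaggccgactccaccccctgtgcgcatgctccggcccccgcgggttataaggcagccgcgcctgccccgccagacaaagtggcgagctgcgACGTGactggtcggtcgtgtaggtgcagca
Slc16a3 held 2 cores close to each other, Aldoa 1, Slc2a1 2, Pgam1 3, Ldha 7 and Slc16a1 5. The Ldha cores include 2 palindromes CACGTG. The Aldoa window belongs to 1 of its several annotated starts. A window was found for 36 of the 37, and 33 of these (91.7%) held a core in some window. A core was also found for 68.3% of the 8771 tested genes with a window and in 43.8% of all 32851 windows of that length. A match describes the letters and is not a binding site.

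The 3 transporters of glucose and lactate had a median change of 0.57 log2 units, the largest among the roles. Slc16a3 (mm10, chr11:120948480-120960868, + strand), which encodes the lactate exporter MCT4, was at 2.88, 2.69 and 3.21 FPKM in ITSN 1, 2 and 3, against 1.14, 1.66 and 1.52 FPKM in vehicle 1, 2 and 3. Every ITSN library was above every vehicle library, in a gene of low level. The means were 2.93 ± 0.261 FPKM in ITSN and 1.44 ± 0.272 FPKM in vehicle (SD, n = 3 each), a log2 change of 0.69 (SE 0.12, adjusted p = 0.0755 in limma). It was 0.60 without vehicle 1 (adjusted p = 0.0407) and 0.38 with the GC trend removed.

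Slc2a1, the glucose transporter GLUT1, was at 38.6, 32.5 and 43.8 FPKM in ITSN 1, 2 and 3, against 29.2, 24.8 and 22.3 FPKM in vehicle 1, 2 and 3. The groups did not overlap, although ITSN 2 and vehicle 1 came close, and they overlapped after trimmed-mean scaling. Its log2 change was 0.57 (SE 0.15, adjusted p = 0.108), 0.67 without vehicle 1 (adjusted p = 0.0481) and 0.34 with the GC trend removed. Slc16a1, the carrier MCT1 that moves lactate in either direction, was at 45.1, 49.3 and 43.9 FPKM in ITSN 1, 2 and 3, against 36.0, 38.7 and 38.6 FPKM in vehicle 1, 2 and 3. It was higher in each ITSN library (log2 change 0.28, SE 0.09, adjusted p = 0.147), and it is the transporter whose change did not shrink when the GC trend was removed (0.33).

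**Figure D2:**
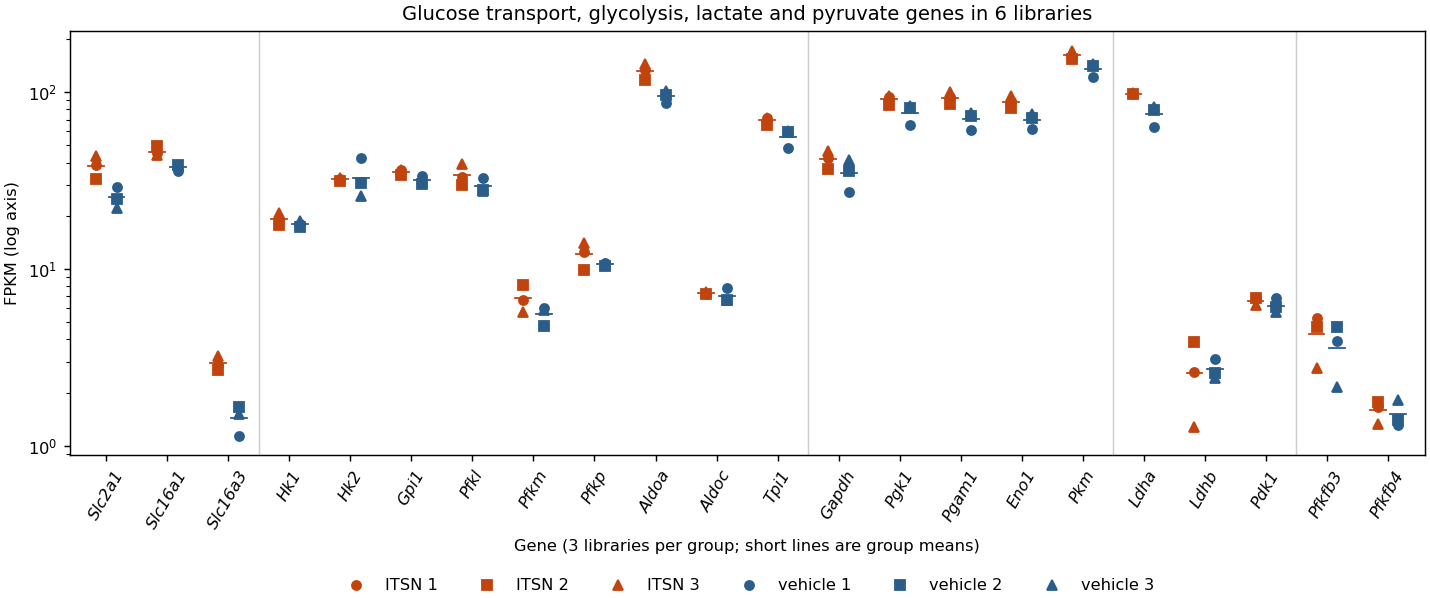
FPKM on a log axis of the 22 transport, glycolysis, pyruvate and fructose-2,6-bisphosphate genes in the 3 ITSN libraries (red) and the 3 vehicle libraries (blue). Short lines are group means, and vertical lines part the roles. All 5 triose-phase genes have vehicle 1 as their lowest point, and Ldha has ITSN libraries within 97.0 to 98.7 FPKM.

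The enzymes of glycolysis were among the more abundant of the 37, led over the 6 libraries by Pkm (149 FPKM), Aldoa (113 FPKM) and Ldha (86.5 FPKM). Of the 14 enzymes of the glycolytic steps, 13 had a fitted change above 0, with a median of 0.25 log2 units. In 7 of 14 all ITSN libraries were above all vehicle libraries, where 21.8% of all tested genes were. After trimmed-mean scaling 11 of 14 were above 0 with a median of 0.14. Removal of the GC trend left 8 of 14 above 0 with a median of 0.01. The median transcript GC of these enzymes was 53.1%, that of all tested genes 48.6%, and the part of GC content in the change of the enzymes was not tested.

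In the investment phase, Aldoa, the aldolase that splits fructose-1,6-bisphosphate, was at 133, 117 and 145 FPKM in ITSN 1, 2 and 3, against 87.4, 96.1 and 102 FPKM in vehicle 1, 2 and 3. All ITSN libraries were above all vehicle libraries. Its log2 change was 0.46 (SE 0.12, adjusted p = 0.105), and 0.14 with the GC trend removed. A second row under the symbol Aldoa, for a separate gene model next to it (chr7:126800790-126809108), was at 1.25, 0.554 and 0.848 FPKM in ITSN 1, 2 and 3, against 0.203, 0.364 and 0.357 FPKM in vehicle 1, 2 and 3. It was too low to be tested. Tpi1, which interconverts the triose phosphates, was at 71.5, 65.3 and 71.3 FPKM in ITSN 1, 2 and 3, against 48.1, 59.3 and 60.1 FPKM in vehicle 1, 2 and 3. The groups did not overlap, with vehicle 1 far below (log2 change 0.31, SE 0.11, adjusted p = 0.189).

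Among the other investment enzymes Gpi1 alone had groups that did not overlap. Gpi1, which turns glucose-6-phosphate into fructose-6-phosphate, was at 33.9 to 36.5 FPKM in ITSN and 30.3 to 33.4 FPKM in vehicle libraries, a gap that closed after trimmed-mean scaling, with a log2 change of 0.15 (SE 0.08). The hexokinases that trap glucose differed in pattern. Hk1 overlapped between groups at 17.8 to 20.6 FPKM in ITSN and 17.3 to 18.7 FPKM in vehicle libraries. Hk2, the inducible one, was at 32.2, 31.7 and 32.7 FPKM in ITSN 1, 2 and 3, against 42.3, 30.5 and 25.9 FPKM in vehicle 1, 2 and 3. The ITSN libraries were nearly equal and lay inside the vehicle range, which vehicle 1 topped. The phosphofructokinases Pfkl, Pfkm and Pfkp, which commit the sugar to glycolysis, had log2 changes of 0.20 (SE 0.13), 0.25 (SE 0.15) and 0.16 (SE 0.13), all with overlapping groups. Pfkm, the muscle form, was highest in ITSN 2 at 8.14 FPKM, the library where the 12 skeletal muscle markers summed to 111 FPKM. Those markers summed to 61.3 and 22.5 FPKM in ITSN 1 and 3, and to 9.71, 25.8 and 27.6 FPKM in vehicle 1, 2 and 3, with the myosin Myh4 at 0 in vehicle 1 and 2. Among the vehicle libraries Pfkm was highest in vehicle 1, where the muscle sum was lowest (5.99, 4.77 and 5.86 FPKM in vehicle 1, 2 and 3). The adipocyte, neutrophil, endothelial and erythroid marker sums were also highest in ITSN 2 among the ITSN libraries. The part of any of these cell types in the Pfkm values was not tested. More cells of a type cannot be told apart from more RNA per cell in bulk tissue. Aldoc, an aldolase of brain, was at 7.25 to 7.41 FPKM in ITSN and 6.65 to 7.83 FPKM in vehicle libraries.

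All 5 triose-phase enzymes had a fitted change above 0, under the scalings named above as well, and 4 of them with the GC trend removed. Pgam1, phosphoglycerate mutase, was at 94.0, 85.3 and 99.8 FPKM in ITSN 1, 2 and 3, against 61.5, 72.8 and 76.4 FPKM in vehicle 1, 2 and 3. Its groups did not overlap, and its log2 change was 0.40 (SE 0.12, adjusted p = 0.128), 0.31 without vehicle 1 and 0.22 with the GC trend removed. Eno1, enolase, was at 89.0, 81.8 and 94.6 FPKM in ITSN 1, 2 and 3, against 62.0, 71.2 and 75.1 FPKM in vehicle 1, 2 and 3. Again every ITSN library was higher (log2 change 0.35, SE 0.11, adjusted p = 0.147), but with the GC trend removed the value was 0.01.

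Pgk1, which makes the first ATP of this phase, was at 84.8 to 95.5 FPKM in ITSN and 65.1 to 83.7 FPKM in vehicle libraries, with no overlap and a log2 change of 0.26 (SE 0.12). Pkm, which makes pyruvate and the last ATP, was at 154 to 172 FPKM in ITSN and 122 to 144 FPKM in vehicle libraries, also with no overlap (0.25, SE 0.11). Gapdh, often used as a reference transcript, overlapped at 36.6 to 46.7 FPKM in ITSN and 27.4 to 41.1 FPKM in vehicle libraries (0.28, SE 0.17). Vehicle 1 was the lowest of the 6 libraries in 5 of these 5 genes, as it was in 52.1% of all tested genes. Several of these genes have near-identical copies, which the authors' counting could split. At 95% identity over 500 bases or more, Gapdh had 71 copies, Eno1 and Bnip3 3 each, Pgk1 and Ldha 2 each, and Gpi1, Ldhb and Pgam1 1 each. The copy Eno1b was listed at 72.7 FPKM over the 6 libraries, near the level of Eno1 itself. The 2 listed Gapdh copies were at 0.786 and 1.19 FPKM. Pkm shares 767 exon bases with Gm49759 on the same strand, listed at 31.5 FPKM in ITSN and 22.7 FPKM in vehicle.

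At the branch after pyruvate, Ldha, the lactate dehydrogenase subunit that favours lactate, was at 97.0, 97.7 and 98.7 FPKM in ITSN 1, 2 and 3, against 63.7, 79.3 and 82.6 FPKM in vehicle 1, 2 and 3. The ITSN libraries were nearly equal, and each was above every vehicle library. The log2 change was 0.38 (SE 0.12, adjusted p = 0.142), 0.27 without vehicle 1 and 0.24 with the GC trend removed. Ldhb, the subunit of heart muscle, was low and uneven, at 2.62, 3.88 and 1.28 FPKM in ITSN 1, 2 and 3, against 3.09, 2.60 and 2.43 FPKM in vehicle 1, 2 and 3. Its highest and lowest values were both in ITSN. Among the ITSN libraries its values followed the order of the muscle marker sums, but also that of the adipocyte, neutrophil, endothelial and erythroid marker sums. The part of any of these cell types in the Ldhb values was not tested. Pdk1, the kinase that shuts off pyruvate dehydrogenase and so keeps pyruvate from oxidation, overlapped at 6.84, 6.85 and 6.24 FPKM in ITSN 1, 2 and 3, against 6.82, 6.08 and 5.72 FPKM in vehicle 1, 2 and 3 (log2 change 0.09, SE 0.10).

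The bifunctional enzymes Pfkfb3 and Pfkfb4, which set the level of the phosphofructokinase activator fructose-2,6-bisphosphate, did not separate the groups. Pfkfb3 was at 5.31, 4.73 and 2.76 FPKM in ITSN 1, 2 and 3, against 3.92, 4.71 and 2.15 FPKM in vehicle 1, 2 and 3. Pfkfb4 was the least abundant of the 37 over the 6 libraries, at 1.66, 1.78 and 1.34 FPKM in ITSN 1, 2 and 3, against 1.31, 1.40 and 1.82 FPKM in vehicle 1, 2 and 3. The fitted log2 changes of 0.21 (SE 0.28) and 0.05 (SE 0.12) were smaller than their errors.

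Hif1a (mm10, chr12:73901375-73947530, + strand), the oxygen-regulated subunit of HIF-1, was the one gene of the 37 lower in every ITSN library. It was at 49.9, 52.7 and 45.3 FPKM in ITSN 1, 2 and 3, against 58.6, 58.3 and 56.1 FPKM in vehicle 1, 2 and 3. The vehicle libraries lay close together, and the groups did not overlap before or after trimmed-mean scaling. The log2 change was -0.22 (SE 0.09, adjusted p = 0.224), -0.21 without vehicle 1 and -0.15 with the GC trend removed. A gene on the same strand, Gm49321, shares 148 exon bases with Hif1a and was listed at 0.129 FPKM in ITSN and 0.814 FPKM in vehicle. These values are of the transcript, while HIF-1α is set mainly by the loss of its protein.

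Among the oxygen sensors, Egln3, itself a HIF target, was at 53.8, 53.8 and 52.4 FPKM in ITSN 1, 2 and 3, against 49.9, 46.0 and 43.9 FPKM in vehicle 1, 2 and 3. The groups did not overlap before trimmed-mean scaling (log2 change 0.19, SE 0.09, adjusted p = 0.262). Egln1, the main sensor of HIF-1α, overlapped at 23.3 to 24.7 FPKM in ITSN and 22.1 to 26.9 FPKM in vehicle libraries. Vhl, the capture subunit, was at 4.44 to 4.79 FPKM in ITSN and 4.27 to 4.37 FPKM in vehicle libraries, a gap that closed after trimmed-mean scaling. Arnt, the constant partner, overlapped at 6.80 to 7.63 FPKM in ITSN and 6.08 to 8.02 FPKM in vehicle libraries.

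Most of the 10 genes grouped here as HIF targets differed more among the vehicle mice than between the groups. Car9 did not, with a log2 change of 0.60 beside a vehicle SD of 0.51 on the same scale. Of the 10 targets 5 had a fitted change above 0 and 5 below, with a median of 0.03 log2 units. The median was -0.08 and -0.02 after trimmed-mean scaling and quantile normalization. Among the vehicle libraries vehicle 1 was the highest, vehicle 2 the middle and vehicle 3 the lowest in 8 of 10, where 19.8% of all tested genes did so. That order was not particular to the targets. It also held in 4 of the 5 HIF subunit and oxygen sensing genes, 2 of the 3 pyruvate genes and 17 of the 37. Vehicle 1 was the highest of all 6 libraries and vehicle 3 the lowest in 7 of 10, where 5.36% of all tested genes did so. The median difference of vehicle 1 over vehicle 3 was 1.02 log2 units for the targets and -0.21 for all tested genes. The glycolytic enzymes, most of them HIF targets as well, did not share this ordering. Among the 14 of them, vehicle 1, 2 and 3 fell in that order in 2 and rose in 7, where 53.4% of all tested genes rose. The 10 grouped genes and this ordering were singled out after the values were seen.

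**Figure D3:**
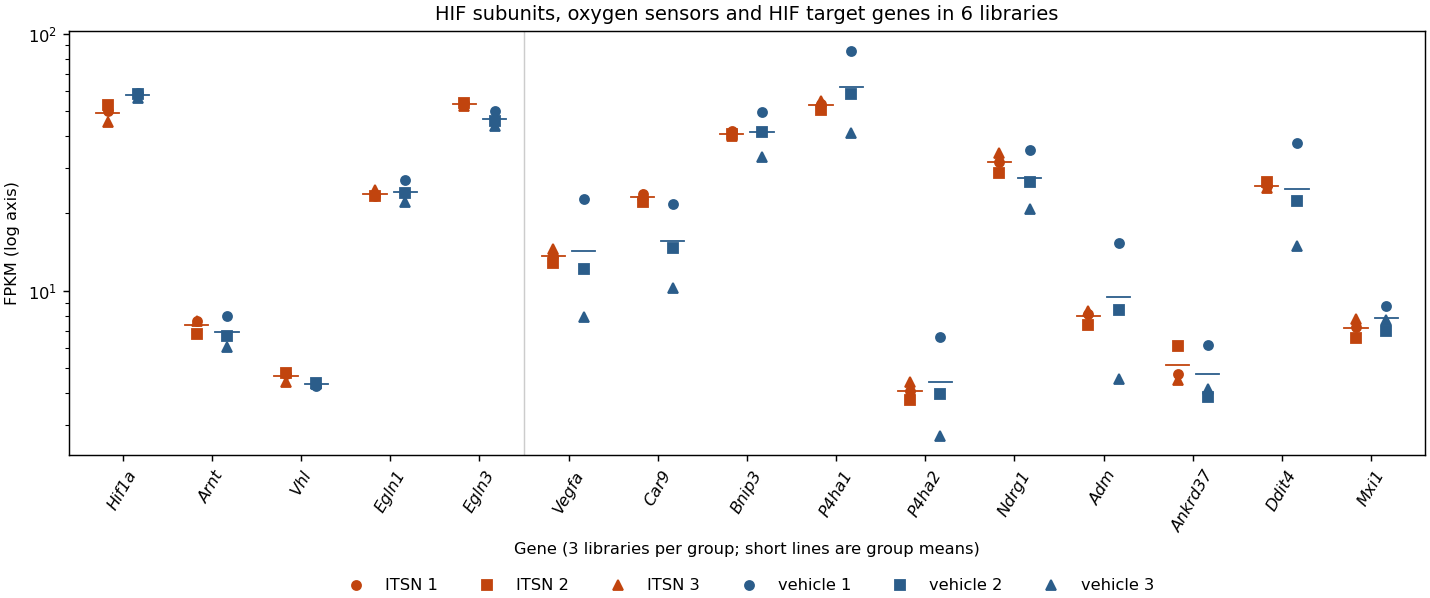
FPKM on a log axis of the 5 HIF subunit and oxygen sensing genes and the 10 HIF target genes in the 3 ITSN libraries (red) and the 3 vehicle libraries (blue), with short lines for group means. For most target genes the red points lie close together, while the blue points spread from vehicle 1 (circle) down to vehicle 3 (triangle), as for Adm from 15.3 to 4.56 FPKM.

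Adm, which encodes the vasodilator peptide adrenomedullin, was at 8.11, 7.39 and 8.37 FPKM in ITSN 1, 2 and 3, against 15.3, 8.46 and 4.56 FPKM in vehicle 1, 2 and 3. Vegfa, the main angiogenic growth factor, was at 13.7, 12.8 and 14.6 FPKM in ITSN 1, 2 and 3, against 22.7, 12.2 and 7.90 FPKM in vehicle 1, 2 and 3. Vehicle 1 over vehicle 3 came to 3.36-fold for Adm and 2.88-fold for Vegfa, with the ITSN libraries in between. Ddit4, an inhibitor of the growth kinase mTORC1, was at 25.5, 26.4 and 25.1 FPKM in ITSN 1, 2 and 3, against 37.6, 22.5 and 15.0 FPKM in vehicle 1, 2 and 3. The collagen prolyl hydroxylase P4ha1 was at 53.1, 50.6 and 54.8 FPKM in ITSN 1, 2 and 3, against 86.0, 58.5 and 41.2 FPKM in vehicle 1, 2 and 3. For both genes the ITSN libraries lay close together, with vehicle 1 above and vehicle 3 below all of them. Another collagen prolyl hydroxylase, P4ha2, was at 3.78 to 4.44 FPKM in ITSN and 2.73 to 6.63 FPKM in vehicle libraries. Bnip3, which marks mitochondria for removal, was at 40.0 to 41.8 FPKM in ITSN and 33.3 to 49.6 FPKM in vehicle libraries. In each of these 6 genes the 3 ITSN values lay inside the vehicle range.

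Car9 (mm10, chr4:43506966-43513729, + strand), the carbonic anhydrase that acidifies the space around hypoxic cells, was the one target whose groups did not overlap. It was at 23.8, 22.1 and 23.6 FPKM in ITSN 1, 2 and 3, against 21.7, 14.7 and 10.3 FPKM in vehicle 1, 2 and 3. Vehicle 1 reached nearly the ITSN level, while vehicle 2 and 3 stood well below. The means were 23.2 ± 0.892 FPKM in ITSN and 15.6 ± 5.79 FPKM in vehicle (SD, n = 3 each). The log2 change was 0.60 (SE 0.24, adjusted p = 0.220) and the groups overlapped after trimmed-mean scaling. It was 0.86 without vehicle 1 (adjusted p = 0.0407), and 0.38 with the GC trend removed. An antisense gene, Gm12454, shares 214 exon bases with Car9 and was listed at 1.91 FPKM in ITSN and 1.60 FPKM in vehicle. Whether the counting used strand is not stated in the sources at hand.

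Ndrg1, a stress and differentiation gene, had the second smallest p of the targets. It was at 31.7, 28.8 and 34.3 FPKM in ITSN 1, 2 and 3, against 35.3, 26.6 and 20.8 FPKM in vehicle 1, 2 and 3. The ITSN values again lay inside the vehicle range (log2 change 0.22, SE 0.19, adjusted p = 0.556), and the value was 0.41 without vehicle 1. Ankrd37, an ankyrin repeat gene, was at 4.52 to 6.11 FPKM in ITSN and 3.89 to 6.18 FPKM in vehicle libraries. Mxi1, a repressor that competes with Myc for its partner Max, was at 6.54 to 7.78 FPKM in ITSN and 7.01 to 8.76 FPKM in vehicle libraries. It was the target with the smallest gap between vehicle 1 and vehicle 3, at 1.14-fold.

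The spread within the groups was set beside that of all genes, as a description. The targets' SD of log2(FPKM + 1) had a median of 0.09 over the ITSN libraries and 0.51 over the vehicle libraries, where all tested genes had medians of 0.10 and 0.19. The vehicle SD was the larger in 10 of 10 targets, and in 71.6% of all tested genes. All 3 ITSN values lay inside the vehicle range in 8 of 10 targets, and in 27.8% of all tested genes. For the 14 glycolytic enzymes the medians were 0.10 in ITSN and 0.14 in vehicle. Ldhb was the gene of the 37 with the largest ITSN SD, at 0.56.

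**Figure D4:**
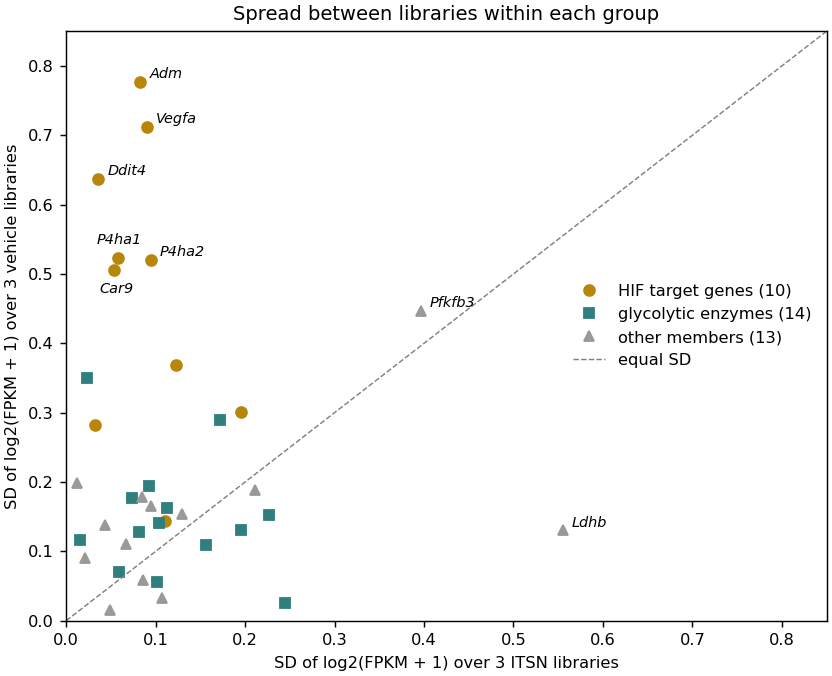
SD of log2(FPKM + 1) over the 3 ITSN libraries (horizontal) and over the 3 vehicle libraries (vertical) for each of the 37 genes, with the HIF target genes in gold, the glycolytic enzymes in teal and the other genes in grey. All 10 gold points lie above the dashed line of equal SD, with Adm highest at 0.78, while Ldhb lies far to the right.

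Markers of other cell types also differed among the vehicle libraries. The 10 targets summed to 214, 205 and 218 FPKM in ITSN 1, 2 and 3, against 290, 199 and 148 FPKM in vehicle 1, 2 and 3. Neutrophil markers, of which 5 of 6 were listed, summed to 93.1, 116 and 69.9 FPKM in ITSN 1, 2 and 3, against 222, 122 and 75.9 FPKM in vehicle 1, 2 and 3, and so were highest in vehicle 1 as well. Endothelial markers (6 of 7 listed) summed to 19.9 to 27.9 FPKM in ITSN and to 35.6, 26.4 and 22.7 FPKM in vehicle 1, 2 and 3. Cdh5 alone gave 17.4 FPKM of the vehicle 1 sum. The fall from vehicle 1 to 3 was seen in 4 of the 6. Kdr was flat (2.10, 2.10 and 2.09 FPKM) and Tek uneven (1.16, 1.25 and 1.13 FPKM) in vehicle 1, 2 and 3. Macrophage markers (7 of 7) summed to 260 to 322 FPKM in ITSN, against 105, 243 and 303 FPKM in vehicle 1, 2 and 3. Fibroblast markers (7 of 7) summed to 119 to 190 FPKM in ITSN, against 45.6, 136 and 180 FPKM in vehicle 1, 2 and 3. Most of that sum was collagen, and the fibroblast marker Pdgfra ran the other way, at 6.38 to 10.7 FPKM in ITSN, against 14.8, 9.35 and 6.82 FPKM in vehicle 1, 2 and 3. Both sums were lowest in vehicle 1, as were the 5 triose-phase enzymes, which summed to 478, 443 and 508 FPKM in ITSN 1, 2 and 3, against 338, 402 and 421 FPKM in vehicle 1, 2 and 3. Luminal epithelial markers (8 of 12) summed to 541 to 571 FPKM in ITSN, against 379, 496 and 543 FPKM in vehicle 1, 2 and 3. Krt8 and Krt18 made up most of it, while Krt19 and Areg were highest in vehicle 1, at 5.15 and 24.5 FPKM. The part of these cell types, and of the mitochondrial share, in the results above was not tested.

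**Figure D5:**
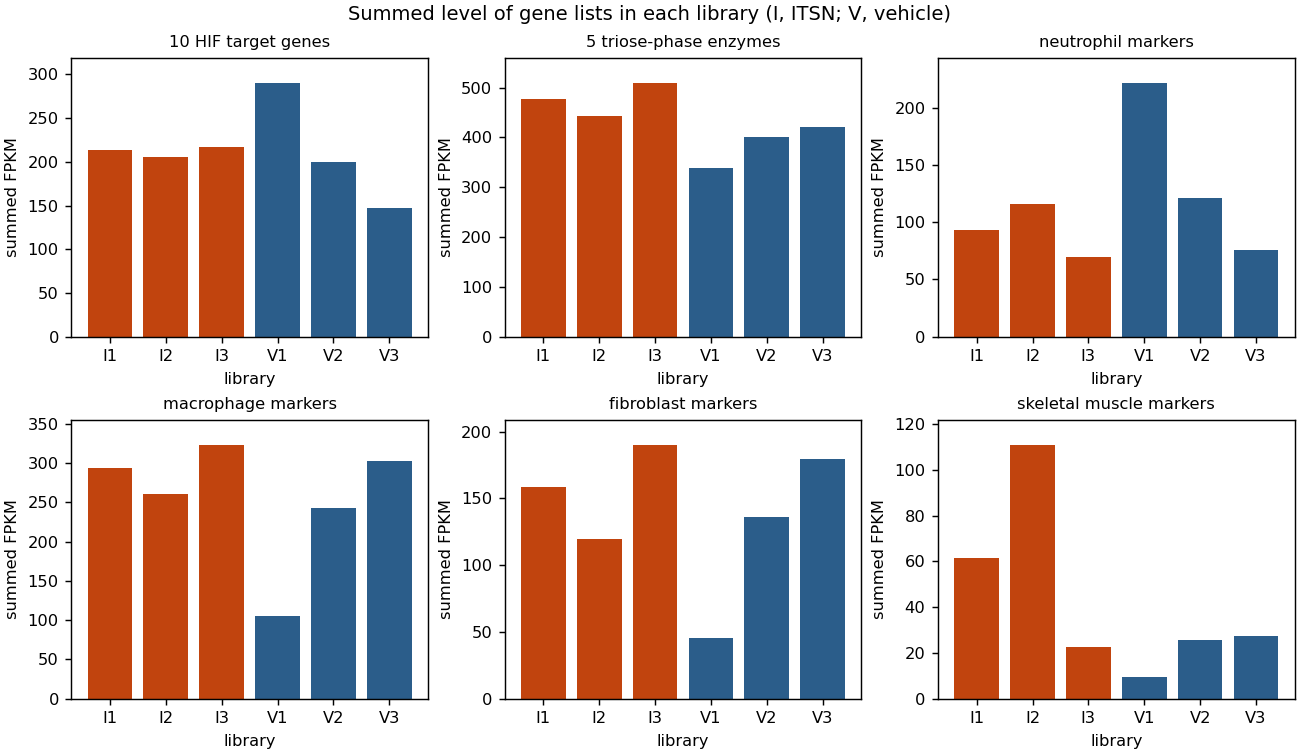
Summed FPKM of the 10 HIF target genes, the 5 triose-phase enzymes and 4 marker lists in each ITSN library (I, red) and each vehicle library (V, blue), with bars from 0. The HIF targets and the neutrophil markers are highest in vehicle 1 and, among the vehicle libraries, lowest in vehicle 3, and the triose-phase, macrophage and fibroblast sums are lowest in vehicle 1.

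Shares within a pair or trio of isoenzymes do not depend on the scaling of a library. Slc16a3 made up 5.99%, 5.18% and 6.81% of the summed FPKM of Slc16a1 and Slc16a3 in ITSN 1, 2 and 3, against 3.06%, 4.11% and 3.79% in vehicle 1, 2 and 3. Every ITSN share was higher, with means of 5.99% ± 0.817 in ITSN and 3.65% ± 0.538 in vehicle (SD, n = 3 each). A share still depends on GC content where the isoenzymes differ in it, as Slc16a3 (56.6% GC) and Slc16a1 (42.9% GC) do. Their log2 changes, 0.69 and 0.28 in the fit of all 6 libraries, were 0.38 and 0.33 with the GC trend removed. Egln3 made up 69.1% ± 0.999 of Egln1 and Egln3 in ITSN and 65.7% ± 0.794 in vehicle. Aldoc made up 5.30% ± 0.508 of Aldoa and Aldoc in ITSN and 6.96% ± 1.11 in vehicle. In these 3 families the groups did not overlap, and the exact two-sided permutation p was 0.1 for each, the smallest that 3 against 3 libraries allow (0.267 after adjustment over the 8 families). The shares of Hk2, Pfkp, Ldhb, P4ha2 and Pfkfb4 overlapped between groups, with exact permutation p from 0.3 to 0.9.

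The rest of the pathways gave 0 genes past the limma test in either direction. Of 13 other glycolysis genes tested, 10 had a fitted change above 0, with a median of 0.23 log2 units, and at an unadjusted p under 0.05 there were 4 higher and 1 lower in ITSN, beside 16.3% higher and 4.57% lower over all tested genes. Those with the smallest p were Eno1b (0.46, adjusted p = 0.122), the gene listed as Pgm1 on chromosome 5 (-0.29, adjusted p = 0.147) and the glucose-6-phosphatase subunit G6pc3 (0.51, adjusted p = 0.158). Eno1b is the near-identical copy of Eno1, so its value may not be separate from that of Eno1. The gene listed as Pgm2, on chromosome 4, went the other way, with each ITSN library above every vehicle library (0.23, adjusted p = 0.228). Of 12 tested genes of the mitochondrial pyruvate carrier, of pyruvate dehydrogenase and of its kinases and phosphatases, 7 were above 0, with a median of 0.10 (-0.01 after quantile normalization, -0.03 without vehicle 1), and 0 higher and 1 lower had an unadjusted p under 0.05. Dld, a subunit of pyruvate dehydrogenase, was at 35.5, 37.8 and 32.9 FPKM in ITSN 1, 2 and 3, against 42.5, 48.6 and 49.4 FPKM in vehicle 1, 2 and 3. It was lower in each ITSN library (log2 change -0.39, adjusted p = 0.108, -0.46 with adjusted p = 0.0413 without vehicle 1, and -0.34 with adjusted p = 0.0658 once the trend over GC was also taken out). The kinase Pdk2 and the pyruvate carrier Mpc2 each stood at 0.23 (adjusted p = 0.252 and 0.329).

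Of 16 other regulators of HIF, 7 were above 0, with a median of -0.00, and 1 higher and 0 lower had an unadjusted p under 0.05. The sensor Egln2 was at 6.27, 6.23 and 6.24 FPKM in ITSN 1, 2 and 3, against 4.56, 4.31 and 4.99 FPKM in vehicle 1, 2 and 3. The groups did not overlap (log2 change 0.37, adjusted p = 0.103), but the value turned to -0.10 with the GC trend removed. The chaperone Hsp90ab1 stood at -0.31 (adjusted p = 0.243) and Os9 at 0.17 (adjusted p = 0.340, and -0.14 with the GC trend removed). With vehicle 1 left out and the GC trend removed, 1 of the 16 passed, Elob, as lower in ITSN (-0.51, adjusted p = 0.0483). With all 6 libraries Elob stood at 0.08 (adjusted p = 0.855), and without vehicle 1 alone at -0.14 (adjusted p = 0.414). Of 45 other hypoxia response genes, 38 were above 0, with a median of 0.17, and 29 after trimmed-mean scaling, with a median of 0.06. At an unadjusted p under 0.05 there were 9 higher and 1 lower, beside the same 16.3% and 4.57% over all tested genes. Those with the smallest p were the stress sensor Sesn2 (0.57, adjusted p = 0.0795), the collagen lysyl hydroxylase Plod1 (0.61, adjusted p = 0.0908) and the histone demethylase Kdm4b (0.51, adjusted p = 0.0984). Without vehicle 1, Sesn2 and Kdm4b passed at adjusted p = 0.0480 and 0.0498, and with the GC trend removed as well they did not (adjusted p = 0.417 and 0.136). The vehicle SD was the larger in 25 of these 45 (55.6%), against 71.6% of all tested genes. Vehicle 1 was the highest and vehicle 3 the lowest library in 9 (20%), against 5.36% of all tested genes.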

How the data were processed

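The authors deposited gene FPKM for each library, in a unit named per the file headers, and the submitters' processing notes give mm10 as the build. Aligner, counter and annotation: not given in the sources used here. Per the labels' protocols, RNA came from TRIzol and a column kit, and libraries carried dUTP. The lowest of the higher group means in the table is 0.500 FPKM. At the best step tried, 19.3% to 25.9% of low values lay within 0.05 of a whole read (even spacing gives 10%), so counts were not recovered and depth is unknown. Columns were matched to samples by description.

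Genes with 1 FPKM or more in 3 or more libraries were tested in limma 3.58.1 (R 4.3.3) on log2(FPKM + 1), which understates changes of low genes, with a mean-variance trend, two-sided, at a Benjamini-Hochberg adjusted p of 0.05 over all tested genes. Adjusted p-values of genes are limma's. GC content came from GENCODE M21 transcripts (99.7% matched), copies from BLAST 2.17.0. The GC trend was removed by lowess (span 0.3). Trimmed-mean factors dropped 30% of log ratios and 5% of mean levels at each end. Shares were compared by exact permutation. The fit was tested on simulated data.

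The members and lists were chosen with earlier results of these data known. Within each role the 2 genes of smallest p, and Hif1a, have values for every library. Of each other list the 3 of smallest p are named. Further values per library, the vehicle ordering and the spread were chosen after values were seen. The labels do not say that replicate numbers pair the mice, so the main fit took none as paired. Correlations of same-numbered deviations were -0.004, -0.14 and 0.24, which cannot settle it with so few libraries per group. Promoters are RefSeq's. The rest used scipy 1.17.1, numpy 2.4.6 and pandas 2.3.3 in Python 3.11.15.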

Additional observations from a re-analysis of the deposited data

How the results depend on the processing

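With all 6 libraries 0 of the 37 genes passed, and so did 0 under the other pseudocount, filters, scalings, GC removal, replicate block and fit without a trend. Array weights called 24 of the 37 and 6909 of all genes. They gave ITSN 1 a weight of 8.17, vehicle 2 6.73 and vehicle 1 0.108, and the cause of the calls was not tested. The count over all genes, 7 as reported, was 19 with a filter of 5 FPKM, 113 after trimmed-mean scaling (64 higher, 49 lower in ITSN), 93 after quantile normalization (62 higher, 31 lower), 78 after rescaling without mitochondrial transcripts, 2 with the replicate block, and 93 with the GC trend removed and vehicle 1 left out, a setting chosen after seeing the data. Leaving out 1 library gave 1 to 673 genes, with vehicle 1 at the top (410 higher, 263 lower), and 0 to 3 of the 37. Vehicle 1 decided the 3, and with the GC trend removed as well 0 of the 37 passed. The median change of the 37 was 0.0433 after trimmed-mean scaling, 0.00477 with the GC trend removed, and 0.113 to 0.212 with 1 library left out. The 14 genes wholly higher in ITSN were 9 without mitochondrial transcripts and under either trimmed-mean or quantile scaling, 7 with the GC trend removed, and 14 to 23 with 1 library left out. The 1 gene wholly lower became 3 with the GC trend removed, 3 with vehicle 1 left out as well, and 1 to 3 with 1 library left out. Leaving out 1 library alone cannot undo a separation of the groups, so neither count could fall in that setting. The cause of these shifts was not tested. Depth is unknown, so no counting error can be given for low genes such as Slc16a3 and Pfkfb4.

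Several log2 changes turned sign. After trimmed-mean scaling these were Hk1 at -0.016, Aldoc at -0.051, Pdk1 at -0.011, Pfkfb4 at -0.017, Arnt at -0.018, Vhl at -0.0051 and Vegfa at -0.047. After quantile normalization they were Aldoc at -0.067, Pdk1 at -0.031, Pfkfb4 at -0.082, Arnt at -0.035, Vhl at -0.038, Vegfa at -0.016 and Ankrd37 at -0.022. Without mitochondrial transcripts they were Aldoc at -0.030, Pfkfb4 at -0.0029 and Vegfa at -0.025. With the GC trend removed they were Hk1 at -0.22, Gpi1 at -0.015, Pfkl at -0.13, Aldoc at -0.11, Pkm at -0.10, Pfkfb4 at -0.20, Vhl at -0.011, Vegfa at -0.066, Bnip3 at 0.064, Ankrd37 at -0.025, Ddit4 at -0.22, Pdk2 at -0.092, Egln2 at -0.10 and Os9 at -0.14. With vehicle 1 left out as well they were Hk1 at -0.14, Hk2 at 0.11, Pkm at -0.10, Pfkfb4 at -0.18, Bnip3 at 0.24, P4ha1 at 0.16, P4ha2 at 0.16, Adm at 0.25, Mxi1 at 0.013, Egln2 at -0.041 and Os9 at -0.038. With array weights they were Hk2 at 0.085, Bnip3 at 0.015, P4ha2 at 0.053 and Mxi1 at 0.029.

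With 1 library left out, 25 of the 37 kept their sign. The others ranged from -0.47 to 0.30 (Adm), -0.0032 to 0.28 (Ankrd37), -0.15 to 0.13 (Bnip3), -0.17 to 0.46 (Ddit4), -0.090 to 0.047 (Egln1), -0.15 to 0.19 (Hk2), -0.37 to 0.19 (Ldhb), -0.42 to 0.10 (P4ha1), -0.27 to 0.24 (P4ha2), -0.043 to 0.43 (Pfkfb3), -0.0096 to 0.13 (Pfkfb4) and -0.27 to 0.44 (Vegfa). The difference in share, ITSN minus vehicle, ranged from -4.37 to 1.74 percentage points for Hk2, -1.36 to 0.494 for Pfkp and -7.56 to 3.94 for Pfkfb4. The shares of Slc16a3, Egln3 and Aldoc kept their sign. Same-numbered mice were not treated as paired in the main fit, and the replicate block called 0 of the 37.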
